A study of Homo sapiens with 10 samples.

Results

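The ERBB and MET receptor tyrosine kinases and their ligands were followed across the 4 PC3 lines. The genes were taken by name: the receptors EGFR, ERBB2, ERBB3, MET and MST1R, the EGFR ligands AREG, EREG, TGFA and HBEGF, and ERRFI1, an inhibitor of the ERBB receptors. These 10 genes accounted for 11 of the 23170 gene entries and 18 of the 37557 isoform entries in the deposited tables, since AREG was listed at 2 loci.

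RNA was sequenced from 10 samples of PC3, an established line of human prostate cancer cells. In PC3-Epi (2 samples) the cells are a luciferase-carrying population picked for its epithelial morphology, and PC3-EMT14 (3 samples) is a mesenchymal population recovered from PC3-Epi after culture with IL4-treated, CD14+ monocyte-derived macrophages and serial passage. The lines PC3-EMT14-OVOL1, with 3 samples, and PC3-EMT14-OVOL2, with 2, were made from PC3-EMT14 by lentiviral overexpression of the zinc finger transcription factors OVOL1 and OVOL2, so both carry that history as well, and the 2 constructs came in different vectors. PC3-EMT14 is described as the parental line and not as an empty-vector control, so every difference between an OVOL line and PC3-EMT14 may include that of transduction and selection. The design asked what either factor changes in the mesenchymal cells and how far the result resembles PC3-Epi. All 4 groups descend from 1 cell line, and the samples of a group are described as biological replicates.

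Levels are FPKM, in which fragment counts are divided by transcript length and scaled between libraries, here with upper-quartile normalization. Genes of different length can thus be set side by side. Each table listed 1 pooled FPKM per line, the authors' value over the samples of that line. No SD or interval can therefore be given, and no test was made here, since the deposited test columns are the authors' own results and were not used. The depth of the samples is unknown, and from the pooled values it cannot be told whether a difference exceeds the spread between samples. In place of an error, each fold is read against all entries of the same comparison. A gene was counted as different at 2-fold or more with at least 1 FPKM in the higher line. The 3 comparisons against PC3-EMT14 use the same 3 PC3-EMT14 samples, and its values in them were 1 estimate rescaled: those of the OVOL1 and OVOL2 tables were 0.979 and 0.969 times those of the PC3-Epi table at the median. PC3-EMT14 levels below are those of the PC3-Epi table, and every fold was taken within its own table.

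The labels held for the overexpressed genes. OVOL1 was at 11.3 FPKM in PC3-EMT14-OVOL1, against 0.0243 in PC3-EMT14, 0.0701 in PC3-EMT14-OVOL2 and 4.25 in PC3-Epi. OVOL2 was at 831 FPKM in PC3-EMT14-OVOL2, against 0.383 in PC3-EMT14, 0.562 in PC3-EMT14-OVOL1 and 9.91 in PC3-Epi. The OVOL1 line thus stood 2.66-fold above the PC3-Epi level of its factor and the OVOL2 line 83.9-fold above the PC3-Epi level of its own.

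The summed FPKM of 7 epithelial markers was 242 in PC3-EMT14, 432 under OVOL1, 735 under OVOL2 and 1123 in PC3-Epi, with KRT18 or KRT8 the most abundant. One of them, RAB25, a small GTPase of epithelial cells, was at 24.2 FPKM in PC3-Epi and at 0.0566, 0.108 and 0.122 in PC3-EMT14, the OVOL1 line and the OVOL2 line. Of 7 mesenchymal markers, VIM was the most abundant in every line, and their sums ran the other way, at 343, 226, 112 and 92.6 FPKM. VIM alone was at 271, 183, 76.9 and 42.5 FPKM, and not every marker kept the order of the sums. FN1 was at 36.8, 18.4, 16.5 and 33.8 FPKM, CDH2 at 18.0, 13.3, 10.1 and 11.3, and SNAI2 at 4.05, 1.47, 1.80 and 1.35. Of 14 macrophage markers only CD68, which many cell types express, reached 1 FPKM (54.1, 51.2, 57.8 and 13.2 FPKM in that order of lines). Next came CD33, at 0.257, 0.687, 0.245 and 0.784 FPKM, and TYROBP was at 0.0207 FPKM in PC3-EMT14 and at 0 in the other lines. The prostate markers KLK2 and KLK3 were listed at 0 in every line.

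ERBB receptors are activated by ligands made as membrane-bound precursors and released by proteases of the ADAM family. EGFR binds AREG, TGFA, EREG and HBEGF, ERBB2 has no known ligand and serves as the preferred partner, and ERBB3, with a weak kinase of its own, binds neuregulins and signals through its partners. MET is the receptor of hepatocyte growth factor (HGF) and MST1R that of macrophage-stimulating protein (MST1), and both ligands need cleavage by serine proteases to become active. ERBB signalling supports growth of epithelial cells, while HGF acting on MET is a known inducer of cell scattering and motility.

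In PC3-Epi, 3 of the 10 genes were at least 2-fold higher than in PC3-EMT14, namely ERBB3, AREG and TGFA, where 7.09% of 12344 entries with at least 1 FPKM were that much higher, and 0 were lower, where 7.96% of entries were. With OVOL1, AREG alone was higher and 0 genes were lower, against 2.06% and 1.23% of 12111 entries. With OVOL2, EGFR, ERBB3 and AREG, or 3 genes, were higher and 0 lower, against 4.16% and 2.58% of 12226 entries. Between the OVOL lines, 0 of the 10 genes passed 2-fold in either direction, where 1.68% of 12113 entries were higher with OVOL2 and 0.801% were higher with OVOL1. EREG stayed under 1 FPKM in all lines, so 9 genes entered these counts.

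At 1.5-fold more of them were counted. In PC3-Epi 4 genes were higher (background 15.0%) and 1, ERRFI1, was lower (background 15.9%). With OVOL1 2 genes were higher (background 4.32%), with OVOL2 6 genes were (background 7.88%), and OVOL2 exceeded OVOL1 for 4 genes (background 4.53%). At 4-fold, AREG was the 1 gene higher in PC3-Epi (background 2.85%) and the 1 gene higher with OVOL2 (background 1.61%), and 0 were with OVOL1 (background 0.834%). The median log2 ratio of the 9 genes was 0.49 in PC3-Epi, 0.41 with OVOL1 and 0.87 with OVOL2 over PC3-EMT14, against medians over all entries of -0.01, -0.00 and -0.04. Ratios above 0 numbered 6 of 9 in PC3-Epi, 8 with OVOL1, 9 with OVOL2 and 8 for OVOL2 over OVOL1, where 49.1%, 49.7%, 43.99% and 42.5% of all entries were above 0. In bulk RNA, more cells of an epithelial kind and more RNA per cell cannot be told apart. The sums of epithelial markers given above stood in the same order of lines as AREG, TGFA and ERBB3, and their part in these differences was not tested.

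**Figure D1:**
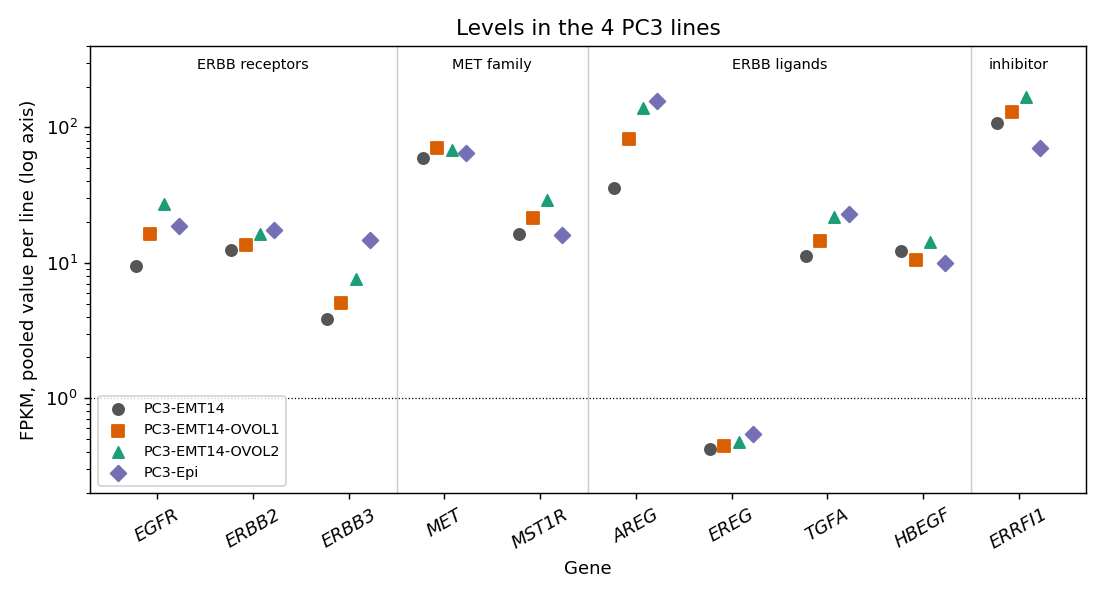
Pooled FPKM of each gene (log axis) in the 4 lines, one symbol per line and no error bars because each line has 1 value. AREG spans 35.6 to 157 FPKM and ERBB3 3.86 to 14.7, MET stays between 59.1 and 70.4, and EREG is the one gene below the dotted line at 1 FPKM.

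Among the receptors, EGFR was at 9.43 FPKM in PC3-EMT14, 16.4 in the OVOL1 line, 27.4 in the OVOL2 line and 18.8 in PC3-Epi. Of the 5 receptors it had the largest fold with OVOL2, 3.00-fold over PC3-EMT14 (log2 1.58), a size that 3.20% of entries reached in either direction. With OVOL1 it was 1.78-fold higher, and in PC3-Epi 1.99-fold, just short of the threshold. The highest level was thus in the OVOL2 line, above that of PC3-Epi. EGFR (chromosome 7, 55086725 to 55275031 in hg19) is listed with 4 isoform entries, 1 of which held 98.5% of the gene's isoform FPKM in PC3-EMT14, 98.8% under OVOL1, 98.9% under OVOL2 and 99.3% in PC3-Epi.

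ERBB3 had another pattern. Its level was 3.86 FPKM in PC3-EMT14, 5.01 in the OVOL1 line, 7.55 in the OVOL2 line and 14.7 in PC3-Epi. PC3-Epi stood 3.82-fold above PC3-EMT14 (log2 1.93), the OVOL2 line 2.02-fold (log2 1.02) and the OVOL1 line 1.33-fold (log2 0.41). Both OVOL lines stayed below the PC3-Epi level, and the OVOL2 fold sat at the threshold, with a log2 ratio of 0.997 once 0.1 FPKM was added to both values. ERBB3 (chromosome 12, 56473892 to 56497128) had 2 isoform entries, of which the minor one, TCONS_00007765, held 24.4% in PC3-EMT14, 16.3% under OVOL1, 15.7% under OVOL2 and 18.4% in PC3-Epi. These shares moved by less than the 10 points counted here as a shift, and of genes with several isoforms 39.1% moved by 5 points or more in PC3-Epi, 29.5% with OVOL1 and 37.9% with OVOL2. All 3 are set against the same PC3-EMT14 value, in which the minor entry was at 0.942 FPKM.

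ERBB2 was within a narrow range, at 12.4 FPKM in PC3-EMT14, 13.5 in the OVOL1 line, 16.3 in the OVOL2 line and 17.4 in PC3-Epi, with folds of 1.11, 1.35 and 1.40. It is listed on chromosome 17 from 37844393 to 37884915. ERBB4, the remaining member of the family, was listed at 0.00821 FPKM or less in every line. Summed over the 4 receptors, ERBB transcripts came to 25.7 FPKM in PC3-EMT14, 34.9 under OVOL1, 51.3 under OVOL2 and 50.9 in PC3-Epi. The sums of the OVOL2 line and PC3-Epi were close, but their make-up was not. EGFR held 53.5% of the sum with OVOL2 and 36.9% in PC3-Epi, and ERBB3 held 14.7% with OVOL2 and 28.9% in PC3-Epi.

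The MET family receptors were the ones least different between PC3-Epi and PC3-EMT14. MET (chromosome 7, 116312459 to 116438440) had a level of 59.1 FPKM in PC3-EMT14, 70.4 in the OVOL1 line, 68.3 in the OVOL2 line and 64.7 in PC3-Epi. The largest of its folds was 1.22, with OVOL1, and between the OVOL lines the log2 ratio was -0.03. Its major isoform entry held between 97.7% and 99.3% of the isoform FPKM in the 4 lines. MET was the most abundant of the 5 receptors in every line, per kilobase, and its level in PC3-EMT14 was exceeded by 6.07% of all gene entries.

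MST1R, the receptor also called RON (chromosome 3, 49924436 to 49941306), was at 16.5 FPKM in PC3-EMT14, 21.5 under OVOL1, 29.2 under OVOL2 and 16.0 in PC3-Epi. It was thus 1.83-fold higher with OVOL2 (log2 0.87), a size that 8.15% of entries reached in either direction. In PC3-Epi it differed from PC3-EMT14 by a log2 ratio of -0.04. Both OVOL lines stood above both other lines.

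**Figure D2:**
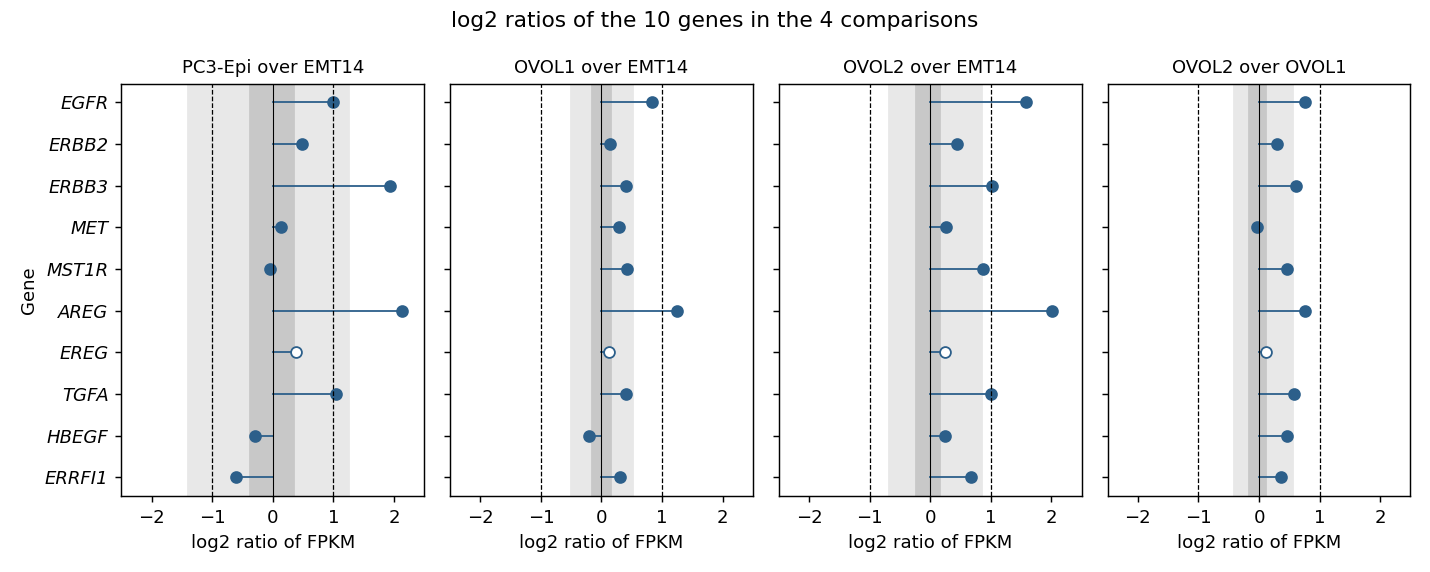
log2 ratio of FPKM for each gene in the 4 comparisons, with the middle 50% (dark) and 90% (light) of all entries of at least 1 FPKM shaded and dashed lines at 2-fold. AREG lies outside the light band in all 4 panels, at 2.14, 1.25, 2.02 and 0.77. EREG is drawn open because it is below 1 FPKM.

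Of the ligands, AREG (amphiregulin, a low-affinity EGFR ligand) was the most abundant in every line, and of AREG, EREG, TGFA and HBEGF it differed the most. Its summed level was 35.6 FPKM in PC3-EMT14, 82.8 in the OVOL1 line, 139 in the OVOL2 line and 157 in PC3-Epi. That is 2.38-fold, 4.04-fold and 4.41-fold over PC3-EMT14, with log2 ratios of 1.25, 2.02 and 2.14. The shares of entries that differed at least as much, in either direction, were 2.37%, 2.05% and 5.14%. The OVOL2 line stood 1.70-fold above the OVOL1 line.

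The sum stands for 2 entries because hg19 holds AREG at 2 places on chromosome 4, from 75310853 to 75320726 and from 75480629 to 75490485. The stretches differ by 10 substitutions and 29 inserted or deleted bases and are 99.6% identical, and 97.6% of the 50-base stretches inside an exon of the first occur unchanged in the second. Reads of 50 bases can mostly not be assigned to one of them, and RefSeq has a single AREG gene on GRCh38.p14. The second entry held 46.9% of the sum in PC3-EMT14, 48.2% in PC3-Epi, 55.6% with OVOL1 and 59.0% with OVOL2, a split that depends on how the authors' software shared out reads. Taken alone, the first entry was 1.99-fold higher with OVOL1 (18.5 to 36.8 FPKM) and the second 2.82-fold (16.4 to 46.0 FPKM), so the OVOL1 count above rests on the sum or on the second entry.

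EREG (epiregulin), whose gene lies before AREG in the same orientation (chromosome 4, 75230860 to 75254477 in hg19), was at 0.418 FPKM in PC3-EMT14, 0.446 under OVOL1, 0.478 under OVOL2 and 0.545 in PC3-Epi. The neighbouring ligand was therefore below the 1 FPKM floor in all 4 lines, where AREG was the most abundant ligand. The start regions of both genes are shown because these neighbours had the highest and the lowest level of the 4 ligands. They are RefSeq windows of 300 bases on GRCh38.p14, plus strand, that end 50 bases after the listed start. Capitals mark CACCTG or its complement CAGGTG, the E-box form known to be bound by ZEB and SNAIL proteins, and, in EREG, CCGTTA, the core of the OVOL motif.
AREG, chr4:74444886-74445185: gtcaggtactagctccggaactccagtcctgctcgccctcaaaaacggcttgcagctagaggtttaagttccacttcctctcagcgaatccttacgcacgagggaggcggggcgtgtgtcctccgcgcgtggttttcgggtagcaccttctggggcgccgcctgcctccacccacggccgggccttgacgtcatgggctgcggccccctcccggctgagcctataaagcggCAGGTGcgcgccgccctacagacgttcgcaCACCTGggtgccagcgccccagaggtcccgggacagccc
EREG, chr4:74364895-74365194: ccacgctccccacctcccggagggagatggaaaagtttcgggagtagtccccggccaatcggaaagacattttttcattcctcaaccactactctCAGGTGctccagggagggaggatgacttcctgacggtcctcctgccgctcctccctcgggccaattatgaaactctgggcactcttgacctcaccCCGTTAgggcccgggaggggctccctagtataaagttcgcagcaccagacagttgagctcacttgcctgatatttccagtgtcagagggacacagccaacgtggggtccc

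In AREG the E-box letters stood at 19 bases before the start on the minus strand and 12 bases after it on the plus strand. A RefSeq window was at hand for 9 of the 10 genes and not for ERBB3, whose start region was therefore not searched. Since EGFR and TGFA have 2 windows each, the 9 genes came to 11 windows. CACCTG on either strand occurred in 5 of the 11, 1 each of MST1R, AREG, EREG, TGFA and HBEGF, where 20.6% of 35116 promoter windows of the same length held it. CCGTTA on either strand occurred in 1 of the 11, that of EREG, without overlapping its E-box match, and in 3.07% of all windows. The longer OVOL consensus was in 0 of the 11 and in 0.980% of all windows. G and C made up 42.0% to 75.3% of the 11 windows, most of which lay above the median of 58.7% over all windows. The shares were not adjusted for this. The members holding CACCTG included AREG, with the largest differences, and EREG and HBEGF, with none past the threshold. These letters describe the windows and say nothing of occupancy.

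TGFA (transforming growth factor alpha, a ligand of EGFR alone) followed the order of AREG at lower levels, with 11.2 FPKM in PC3-EMT14, 14.6 in the OVOL1 line, 21.6 in the OVOL2 line and 23.1 in PC3-Epi. The folds were 1.33, 1.99 and 2.06, so OVOL2 and PC3-Epi fell on either side of the threshold with nearly the same value. HBEGF (heparin-binding EGF-like growth factor, which binds EGFR and ERBB4) did not follow it. It was at 12.3 FPKM in PC3-EMT14, 10.4 under OVOL1, 14.2 under OVOL2 and 10.04 in PC3-Epi, a range of log2 ratios from -0.30 to 0.25 over PC3-EMT14. TGFA is listed on chromosome 2 from 70674417 to 70781105 and HBEGF on chromosome 5 from 139712428 to 139726188.

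Of the 10 genes, 5 had more than 1 isoform entry (EGFR, ERBB2, ERBB3, MET and TGFA), and TGFA was the 1 with a share that moved by 10 percentage points or more. Its entry TCONS_00019952 held 34.9% of the isoform FPKM in PC3-EMT14, 47.3% in the OVOL1 line, 37.9% in the OVOL2 line and 38.9% in PC3-Epi. With OVOL1 that entry was at 6.89 FPKM against 3.83 in PC3-EMT14, and the other entry at 7.68 against 7.14. A shift of that size was found in 10.9% of 4710 genes with several isoforms in the OVOL1 comparison. In the PC3-Epi and OVOL2 comparisons, where 19.3% and 17.2% of such genes moved as much, 0 of the 5 genes did, and 0 did between the OVOL lines (13.7% of such genes). The entries carry no transcript name and no exons, so the stretch that differs was not analysed here.

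**Figure D3:**
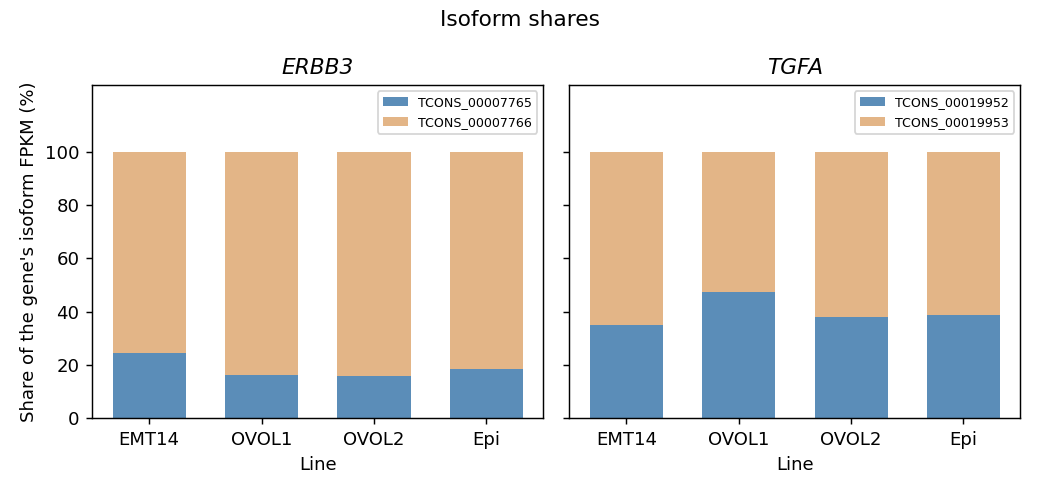
Share of the gene's isoform FPKM (%) held by each of the 2 isoform entries of ERBB3 (left) and TGFA (right) in the 4 lines. The minor ERBB3 entry is at 24.4% in PC3-EMT14 and 16.3%, 15.7% and 18.4% in the OVOL1, OVOL2 and PC3-Epi lines, shifts under 10 points, and the TGFA entry peaks at 47.3% with OVOL1.

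The remaining ERBB ligands were read as a list of 8 genes with ERBB4, of which 4 passed the floor: EPGN was at least 2-fold higher in each comparison against PC3-EMT14, EGF and NRG2 were lower in PC3-Epi, and with OVOL2 BTC was higher and NRG2 lower. The shares of all entries higher and lower were 7.09% and 7.96% in PC3-Epi, 2.06% and 1.23% with OVOL1, and 4.16% and 2.58% with OVOL2. EPGN (epigen, an EGFR ligand whose gene neighbours EREG) was at 4.71 FPKM in PC3-EMT14, 15.1 under OVOL1, 23.3 under OVOL2 and 11.2 in PC3-Epi. Its level was thus higher in both OVOL lines than in PC3-Epi. BTC (betacellulin) was at 4.19, 4.53, 8.36 and 5.57 FPKM in the same order of lines, past 2-fold with OVOL2 at 2.06-fold. NRG2, a neuregulin ligand of ERBB3 and ERBB4, ran the other way, at 5.28, 2.75, 1.59 and 0.238 FPKM. EGF was at 1.93 FPKM in PC3-EMT14, 2.43 under OVOL1, 2.49 under OVOL2 and 0.944 in PC3-Epi. The neuregulins NRG1, NRG3 and NRG4 were at 0.163 FPKM or less in every line.

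Over all 11 ligand genes the sum was 75.8 FPKM in PC3-EMT14, 133 in the OVOL1 line, 212 in the OVOL2 line and 209 in PC3-Epi. AREG held 47.0% of it in PC3-EMT14, 62.2% under OVOL1, 65.9% under OVOL2 and 75.2% in PC3-Epi. As with the receptors, the OVOL2 line and PC3-Epi had like sums of unlike make-up, with EPGN at 11.0% of the ligand sum with OVOL2 and 5.38% in PC3-Epi. These are sums of FPKM and describe transcripts, not released protein.

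**Figure D4:**
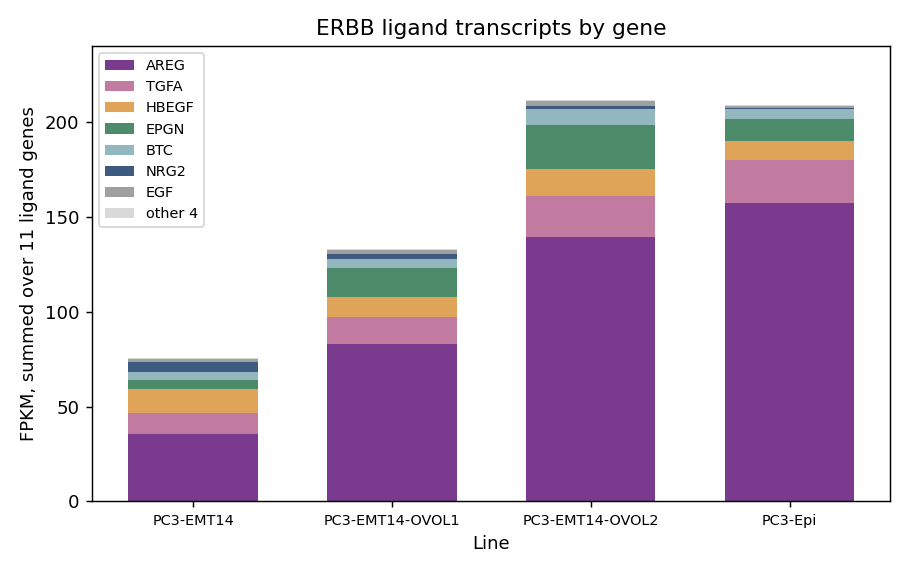
Summed FPKM of 11 ERBB ligand genes in the 4 lines, stacked by gene, with 1 pooled value per gene and line. The column height goes from 75.8 in PC3-EMT14 to 133, 212 and 209, and AREG makes up 47.0% to 75.2% of it.

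ERRFI1 (MIG6, a feedback inhibitor that binds the ERBB kinase domain) was the most abundant of the 10 genes in PC3-EMT14. Its level was 108 FPKM there, 131 in the OVOL1 line, 167 in the OVOL2 line and 70.7 in PC3-Epi. PC3-Epi lay below PC3-EMT14 by 1.52-fold (log2 -0.61), while the OVOL2 line lay above it by 1.60-fold (log2 0.68). Both OVOL lines stood above both other lines, as for MST1R. ERRFI1 is listed on chromosome 1 from 8071779 to 8086393.

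A list of 20 other inhibitors of the receptors and of the ERK pathway was measured beside it. In PC3-Epi 2 of the 20, all past the floor, were at least 2-fold higher and 6 lower, where 7.09% and 7.96% of all entries were, with a list median of -0.38 on the log2 scale. The lower ones were DUSP6, an ERK phosphatase (141 FPKM in PC3-EMT14, 42.2 in PC3-Epi), SPRY2 (36.2 and 11.6 FPKM) and SPRED3 (2.43 and 0.796 FPKM), with DUSP5, SPRED1 and SPRY4. DUSP5, DUSP6, SPRY2 and SPRY4 belong to the feedback genes that ERK activity is known to induce. With OVOL2 SPRY4 (23.5 to 7.42 FPKM) and SPRED1 (20.2 to 9.95 FPKM) were lower (2.58% of all entries), and with OVOL1 0 were (1.23%). CBLC, a ubiquitin ligase of the CBL family that acts on EGFR, was the 1 gene of the list higher with OVOL1 (2.06% of all entries) and with OVOL2 (4.16%), and was higher in PC3-Epi too, from 0.336 FPKM in PC3-EMT14 to 1.85 under OVOL1, 3.75 under OVOL2 and 9.90 in PC3-Epi. The other one higher in PC3-Epi was LRIG3 (1.68 to 3.55 FPKM). Set directly against the OVOL1 line, the OVOL2 line had 2.04-fold more CBLC and 2.35-fold less SPRY4.

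For the MET family, the ligands themselves were scarce. HGF was at 0.132 FPKM or less in every line, and MST1 was at 1.28 FPKM in PC3-EMT14 and 0.445 in PC3-Epi. Of the proteases that can activate HGF, HGFAC was at 0.0431 FPKM or less and HPN at 0.00956 or less in every line. ST14 (matriptase, an activator of pro-HGF) was at 0.531 FPKM in PC3-EMT14, 28.9 in the OVOL1 line, 55.8 in the OVOL2 line and 135 in PC3-Epi. PRSS8 (prostasin) was at 1.63, 4.71, 8.07 and 26.2 FPKM in these lines, and SPINT1 (HAI-1, an inhibitor of HGF activator and matriptase) at 29.6, 54.1, 80.4 and 74.3 FPKM. All 3 were lowest in PC3-EMT14. PLAT, the tissue plasminogen activator, ran the other way in PC3-Epi (9.99 FPKM) and with OVOL2 (135 FPKM), from 332 FPKM in PC3-EMT14. TMPRSS2 was at 0.967 FPKM in PC3-EMT14 and 5.50 in PC3-Epi. Of this list of 11 genes, 4 of the 8 past the floor were higher and 2 lower in PC3-Epi (all entries 7.09% and 7.96%), 2 of 7 and 0 with OVOL1 (2.06% and 1.23%), and 4 and 1 of 8 with OVOL2 (4.16% and 2.58%), where the fourth was PLAU (954 to 2016 FPKM). In the OVOL1 line PLAU was listed at 0 with a flag for too many fragments, so it has no usable value there. This list, like the others, was chosen with earlier results of these data known. The study names ST14, PRSS8 and SPINT1 among genes whose expression correlates with both OVOL factors across cancer cell lines.

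The counts of the remaining lists are read against the same shares of all entries. Those higher were 7.09% in PC3-Epi, 2.06% with OVOL1 and 4.16% with OVOL2. Those lower were 7.96%, 1.23% and 2.58% in the same order. Of 26 adaptors and effectors, 25 past the floor, 1 was higher in each comparison against PC3-EMT14, and it was GRB7, an adaptor of ERBB receptors, at 3.02 FPKM in PC3-EMT14, 7.65 under OVOL1, 14.3 under OVOL2 and 9.16 in PC3-Epi. SHC1 was lower in PC3-Epi (77.2 to 27.2 FPKM). The list medians were -0.11 in PC3-Epi, -0.05 with OVOL1 and -0.15 with OVOL2. Of 9 sheddases and partners, 8 past the floor, 0 passed with either OVOL and 1 was lower in PC3-Epi, ADAM12, at 4.77 FPKM in PC3-EMT14 and 1.18 in PC3-Epi.

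Of 16 early and ERK-linked target genes, 14 past the floor, 1 was higher in each comparison against PC3-EMT14. The shares of all entries that were higher were 7.09% in PC3-Epi, 2.06% with OVOL1 and 4.16% with OVOL2. The 1 gene was IL8 (81.4 FPKM in PC3-EMT14, 291 in the OVOL1 line, 538 in the OVOL2 line and 204 in PC3-Epi). ETV1 (9.91 to 4.70 FPKM) and PLAUR (63.8 to 27.3 FPKM) were lower in PC3-Epi, where 7.96% of all entries were. The list medians were -0.20, 0.11 and 0.03 in PC3-Epi, with OVOL1 and with OVOL2. Of 12 coreceptors and membrane partners, 11 past the floor, 3 were higher and 1 lower in PC3-Epi (all entries 7.09% and 7.96%). With OVOL1 2 were higher (2.06% of all entries), and with OVOL2 2 were (4.16%). CDH1, the cadherin of epithelial junctions, was at 1.00 FPKM in PC3-EMT14, 16.2 under OVOL1, 39.2 under OVOL2 and 50.6 in PC3-Epi. ITGB4, an integrin subunit that associates with EGFR, ERBB2 and MET, was 2.10-fold higher with OVOL1 and 2.74-fold with OVOL2. CAV1 (78.6 to 173 FPKM) and MUC1 (1.388 to 3.501 FPKM) were higher in PC3-Epi, and CD82 was lower (12.5 to 4.19 FPKM).

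The position of AREG was examined after the values had been seen. Within 1 Mb of it the tables list 22 entries other than its own 2, which are left out of these counts. In the OVOL2 comparison 14 of them passed the floor, of which 9 were at least 2-fold higher and 0 lower, where 4.16% of all entries were higher. In the OVOL1 comparison 6 of 12 were higher and 0 lower (2.06% of all entries higher), and in PC3-Epi 3 of 13 were higher and 1 lower (7.09% and 7.96%). The window covers CXC chemokine genes, the ligands EPGN, EREG, AREG and BTC, and other genes, among them RASSF6, which was higher with OVOL2 (1.80 FPKM in PC3-EMT14, 4.59 with OVOL2), and PARM1, the 1 entry lower in PC3-Epi (3.88 and 1.63 FPKM). CXCL1 was at 66.7 FPKM in PC3-EMT14, 306 in the OVOL1 line, 496 in the OVOL2 line and 73.7 in PC3-Epi. CXCL3 was at 4.10, 15.6, 37.1 and 2.10 FPKM and CXCL2 at 2.63, 8.33, 14.7 and 2.01 FPKM in the same order of lines. In PC3-Epi their log2 ratios over PC3-EMT14 were 0.14, -0.96 and -0.39. CXCL6 was at 42.0, 85.9, 71.3 and 31.7 FPKM, past 2-fold with OVOL1 and lowest in PC3-Epi. PF4 was at 0.433, 0.695, 1.36 and 0.0313 FPKM, past the floor with OVOL2 alone, and PPBP was below the floor in every line. IL8, with values given above, and CXCL5, at 0.609, 0.764, 1.52 and 1.74 FPKM, were past 2-fold in PC3-Epi as well as with OVOL2. Of the entries with at least 1 FPKM in some line, AREG, CXCL5 and RCHY1 (4.27, 4.45, 3.95 and 5.30 FPKM) were highest in PC3-Epi. MTHFD2L (4.43, 2.91, 3.26 and 2.57 FPKM) and EREG, which lie with EPGN between CXCL2 and AREG, were not among the entries past 2-fold.

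**Figure D5:**
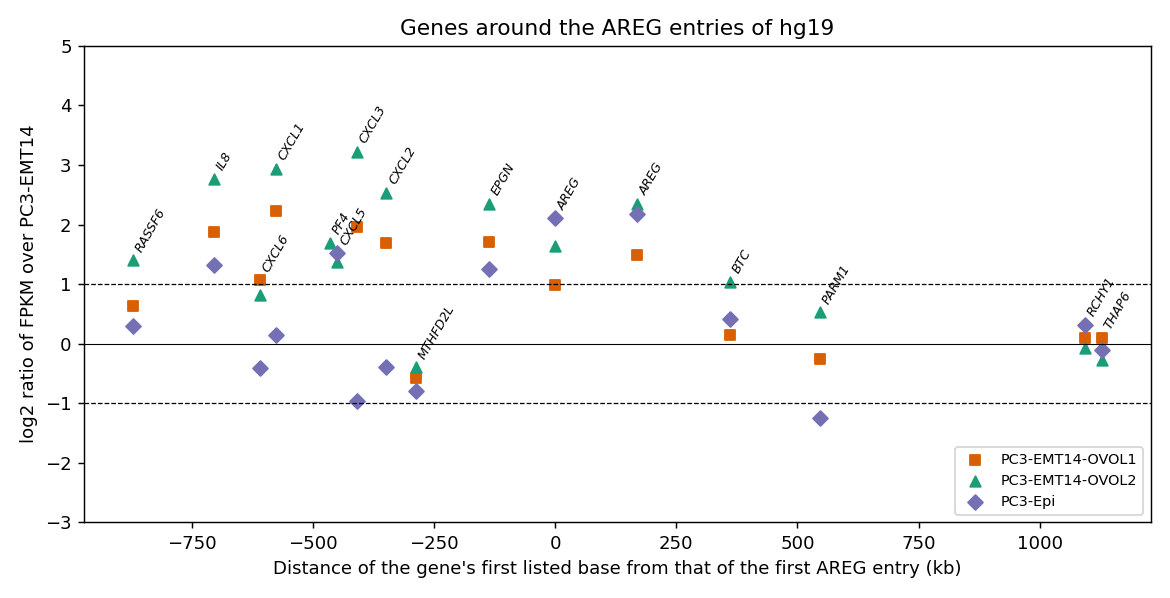
log2 ratio of FPKM over PC3-EMT14 for the entries within 1 Mb of AREG that had at least 1 FPKM in the higher line, against the distance of each gene's first listed base from the first AREG entry (kb), with dashed lines at 2-fold. CXCL1, CXCL2 and CXCL3 are above 1 in both OVOL lines and below it in PC3-Epi, and both AREG entries are near or above 1 in all 3.

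The genes whose 3 log2 ratios against PC3-EMT14 lay nearest to those of AREG, by Euclidean distance over about 11986 entries, were OCLN (distance 0.12), SPNS2 (0.31) and LCP1 (0.32). For ERBB3 they were GBP1 (0.19), C5orf46 (0.22) and BCYRN1 (0.30), and for EGFR PKP3 (0.12), PLLP (0.15) and FAAH2 (0.15). Each likeness rests on 3 ratios that share PC3-EMT14 as denominator.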

How the data were processed

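RNA-seq reads (50 bases, paired) of 10 samples were aligned by the study with TopHat to transcripts of UCSC hg19, and groups were compared in pairs with Cuffdiff, with upper-quartile normalization, compatible-hits normalization, multi-read correction and bias correction. The FPKM deposited by the authors are pooled over the samples of a group and normalized within each of 4 comparisons, each with a gene and an isoform table. Fold change, test statistic, p and q columns hold the authors' own comparisons and were not used. No per-sample columns were present, so the number left unused was 0.

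Members were matched by name in Python 3.11.15 with numpy 2.4.6 and pandas 2.3.3. Ratios were taken without a pseudocount, and the AREG entries were summed. Differences were counted at 2-fold with at least 1 FPKM in the higher group, and isoform shares at 10 percentage points. This rule was checked on values with known answers. Every member is named, with up to 3 genes of largest ratio per direction, list and comparison (DUSP5, SPRED1 and SPRY4 in PC3-Epi, SPINT1 there, PLAU with OVOL2, and the genes around AREG were named after their values were seen), and the 3 nearest genes of the 3 members ranging widest. ERBB4, NRG1, NRG3, NRG4, HGF, HGFAC and HPN, all below 1 FPKM in every line, were named outside that naming rule. Members and lists were chosen with earlier results of these data known. AREG copies were aligned in hg19 with edlib 1.3.9.post1, and deposited starts were shifted by 1 base. Alternatives were the fold threshold, floor, pseudocount, centring, isoform sums in place of gene values, and single AREG entries. Between the OVOL lines, the difference of their log2 ratios over PC3-EMT14 was a further one. Plots used matplotlib 3.10.9.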

Additional observations from a re-analysis of the deposited data

How the results depend on the processing

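Of 450 log2 ratios recomputed, 128 differed from the reported value by more than 0.0001, and 429 stayed on their side of the threshold. Most of the unchanged ratios could not move. Thresholds and floors leave a ratio as it is, isoform sums equalled the gene values, and a single AREG entry leaves the other genes as they are. The sign turned for 1, MET with OVOL2 over OVOL1, from -0.03 to 0.01 when centred. At 1.5-fold, 4 genes were higher and 1 lower in PC3-Epi (15.0% and 15.9% of all entries), and 2 were higher with OVOL1 (4.32%), 6 with OVOL2 (7.88%) and 4 with OVOL2 over OVOL1 (4.53%). At 4-fold, 1 gene was higher in PC3-Epi, 0 with OVOL1 and 1 with OVOL2 (2.85%, 0.834% and 1.61% of all entries). With the first AREG entry alone, an alternative chosen after seeing the data, 0 genes were higher with OVOL1. Isoform shares moved by at least 5 points for 1 gene in PC3-Epi, 2 with OVOL1, 1 with OVOL2 and 1 between the OVOL lines (39.1%, 29.5%, 37.9% and 33.7% of genes with several isoforms), and by 20 points for 0 with OVOL1 (2.61%). Near the threshold, centring on the median of all entries put EGFR in PC3-Epi at 1.01 and TGFA with OVOL2 at 1.03 on the log2 scale, adding 0.1 FPKM put ERBB3 with OVOL2 at 0.997, and adding 1 FPKM put it at 0.85 and TGFA in PC3-Epi at 0.98. The order of the lines was kept for 10 of 10 genes when tables were brought to 1 PC3-EMT14 scale. No paired analysis was possible because each line has 1 pooled value, and for the same reason no sample could be left out. Depth, and with it the precision of low values such as those of EREG, is unknown.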
